A study of Mus musculus with 2 samples.

Results

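The matrix metalloproteinases (Mmp), the Adamts proteases and their tissue inhibitors (Timp) were followed across the cell types of the mouse aorta. Members were every gene whose symbol is Mmp followed by digits (with or without a final letter), Adamts followed by digits, or Timp followed by a digit. They numbered 45 of 32285 genes in the matrix, made up of 22 Mmp, 19 Adamts and 4 Timp genes. Cells came from aortas of ApoE-/- mice aged 20 weeks, in 2 samples. One was labelled MSC_ITGB3 and the other HFD, and the series text presents them as HFD-fed animals given or not given MSC_ITGB3, which the labels do not spell out. ApoE-/- mice lack apolipoprotein E, so both groups carry the deletion and no wild-type aorta was among the samples. The counts form 1 matrix of 2 libraries, told apart by a barcode suffix that no label or header ties to a sample. The libraries are therefore given side by side as library 1 and library 2, without a group and without replicates, and no difference between them can be assigned to the treatment.

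Mmp enzymes are zinc proteases that cut collagens, elastin, proteoglycans and other matrix proteins. Most are secreted as inactive proenzymes, and some are held on the cell surface by a transmembrane segment or a lipid anchor. Adamts enzymes are related secreted proteases with thrombospondin repeats, which include the cleavers of aggrecan and versican and the enzymes that trim procollagens. Timp proteins bind the active site of these enzymes, and Timp3 also stays bound to the matrix. In atherosclerotic arteries these enzymes are known for the breakdown of the fibrous cap and of elastic layers.

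Each barcode (1 droplet) was kept at 3000 or more unique molecular identifiers (UMIs) and at most 20% mitochondrial UMIs, which left 6332 barcodes in library 1 and 6540 in library 2. Their median depth was 8746 UMIs in library 1 and 6031 in library 2. Marker genes, none of them a member, placed 4898 barcodes (77.35%) of library 1 and 4871 (74.48%) of library 2 in a cell type, and the names mean only that those markers were present. The 10 types described were contractile smooth muscle (1490 barcodes in library 1 and 2310 in library 2), fibroblast (1546 and 1495), endothelial (1005 and 215), macrophage (323 and 299), chondrocyte (88 and 317), T cell (155 and 109), Schwann (62 and 31), monocyte (54 and 34), neutrophil (56 and 16) and pericyte (32 and 17). Levels are in CPM, the UMIs of a gene summed over the barcodes of a type in a library and scaled so that all genes of that sum come to the same total. The pericyte barcodes also held fibroblast markers, summed to 9531 CPM in library 1 and 10120 CPM in library 2, against 18640 and 19220 CPM in fibroblast barcodes. Each 3' UMI stands for 1 molecule whatever the transcript's length, so levels of different genes were set side by side without a correction for length. Bracketed ranges are exact 95% Poisson intervals and cover counting error only. The level in free RNA, taken from barcodes with 10 to 100 UMIs, is given where it bears on a value. Apoe itself was found at 14.24 CPM in gated barcodes of library 1 and 8.058 CPM in those of library 2. A 3' tag outside the deleted segment would still be counted, so this value does not check the genotype.

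With 10 UMIs as the limit of detection, 39 members were detected in gated barcodes of library 1 and 37 in those of library 2. Mmp7, the matrilysin of epithelial cells, had 0 UMIs in both libraries, which allows a level of up to 0.0486 CPM in library 1 and 0.0645 CPM in library 2. At the other end, Timp3, Timp2, Timp1, Mmp3, Mmp2, Adamts1 and Mmp14 each gave 8220 or more UMIs in each library. Of 36 members that could be tested, 14 (38.9%) stood at least 4-fold above all other gated barcodes in the same cell type in both libraries, with 10 or more UMIs in each. The same rule held for 21.2% of 15755 genes. Of the 30 members with at least 100 UMIs in each library, 18 had their highest level in the same cell type in both. Spearman's rho between the libraries over the 10 types had a median of 0.70 in these members, with a range of 0.0909 for Mmp3 to 0.927 for Mmp14 and Adamts10. Those points share the same gates and the same free RNA, so the correlation is a description. The heat map of levels shows these patterns type by type.

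**Figure D1:**
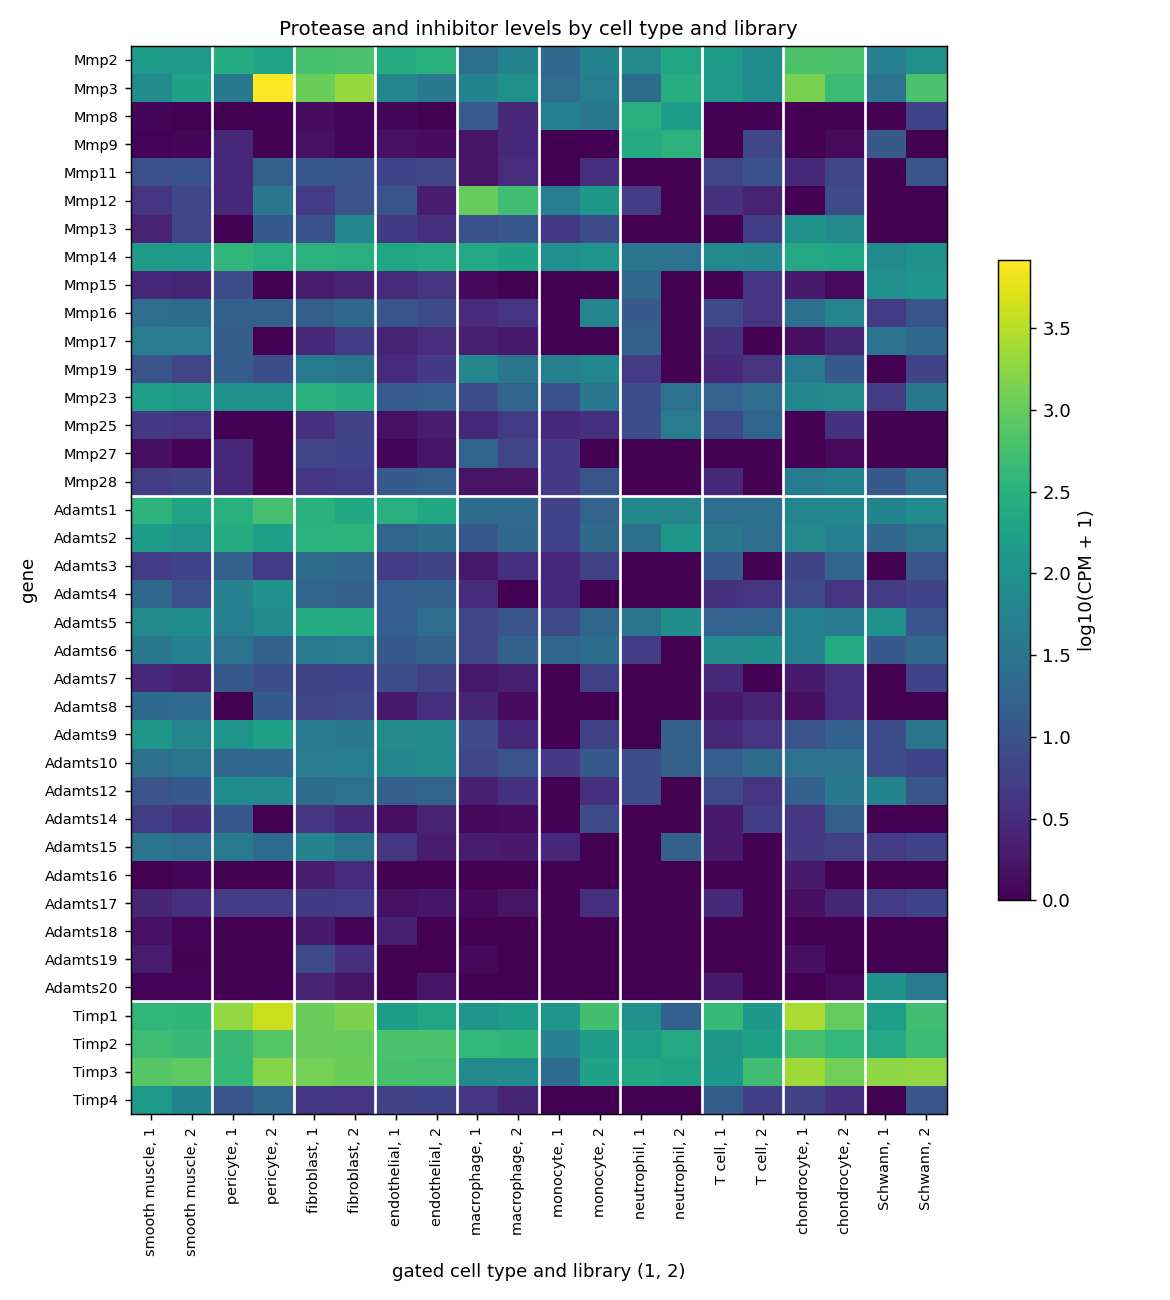
Level of each member with at least 20 UMIs in gated barcodes of either library, by gated cell type (columns, with library 1 left of library 2) and gene (rows), as log10(CPM + 1). Timp1, Timp2, Timp3, Mmp2 and Mmp14 are present in most types, while Mmp9, Mmp12, Mmp15 and Timp4 are highest in neutrophils, macrophages, Schwann barcodes and smooth muscle.

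A row of 9 Mmp genes on chromosome 9 holds both the most abundant protease of fibroblasts and a gene with no UMI. In GRCm38 (GENCODE vM21) the cluster runs over 427.1 kb, from base 7272514 to base 7699585 of chromosome 9, in the order Mmp13, Mmp12, Mmp1b, Mmp3, Mmp10, Mmp8, Mmp27, Mmp20 and Mmp7. Mmp1b lies on the opposite strand and overlaps Mmp12, and it had 1 UMI against 7524 for Mmp12 in gated barcodes of both libraries together. The sequences just upstream of their RefSeq start sites (GRCm38.p6, plus strand, read 5′ to 3′ and ending at the base before the start) are shown because these neighbours differ so much between cell types. Capitals mark the AP-1 consensus TGAGTCA or its reverse complement TGACTCA, and TATAAA.
Mmp13, chr9:7272394-7272513: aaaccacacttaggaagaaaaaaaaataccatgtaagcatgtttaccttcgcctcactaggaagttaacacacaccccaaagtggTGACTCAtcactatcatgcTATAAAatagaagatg
Mmp3, chr9:7445702-7445821: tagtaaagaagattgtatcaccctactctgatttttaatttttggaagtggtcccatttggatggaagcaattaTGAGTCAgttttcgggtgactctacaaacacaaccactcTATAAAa
Mmp10, chr9:7502222-7502341: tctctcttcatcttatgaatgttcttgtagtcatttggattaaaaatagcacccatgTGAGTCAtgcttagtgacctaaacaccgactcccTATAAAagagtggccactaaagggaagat
Mmp12, first start site, chr9:7344277-7344396: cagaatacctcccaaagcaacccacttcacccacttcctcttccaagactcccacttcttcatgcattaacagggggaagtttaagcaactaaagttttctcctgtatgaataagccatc
Mmp12, second start site, chr9:7347254-7347373: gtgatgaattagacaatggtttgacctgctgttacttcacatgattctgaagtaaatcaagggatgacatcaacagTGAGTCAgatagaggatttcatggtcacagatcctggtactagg
Mmp8, chr9:7558309-7558428: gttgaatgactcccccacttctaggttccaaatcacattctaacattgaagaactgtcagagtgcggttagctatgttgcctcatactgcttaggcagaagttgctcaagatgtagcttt

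The AP-1 letters begin 35 bases before the start of Mmp13, 46 before that of Mmp3, 63 before that of Mmp10 and 44 before the second start of Mmp12. The windows printed for Mmp8 and for the first start of Mmp12 hold neither set of letters. Over 250 bases upstream and both strands, AP-1 letters were found in 6 of the 34 promoters of the 31 members that RefSeq's table lists (17.65%), against 4.463% of 32851 mouse promoters. All 6 belonged to the chromosome 9 cluster (Mmp13, Mmp12, Mmp1b, Mmp3, Mmp10 and Mmp7). The members not listed, such as Mmp2, Mmp9 and Adamts5, all lie outside the cluster and were not searched. TATAAA or its reverse complement TTTATA was found in 23.53% of the member promoters and 12.37% of all promoters. The ETS letters AGGAAG or CTTCCT were found in 41.18% of the member promoters and 29.48% of all. These matches describe the letters only. Genes with the AP-1 letters included the abundant Mmp3 and also Mmp10, Mmp1b and Mmp7, which had 8 or fewer UMIs in gated barcodes of each library.

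Mmp3, stromelysin-1, which cuts proteoglycans and activates other proenzymes, was the most abundant protease of fibroblast barcodes. Its level there was 1082 CPM in library 1 (1067 to 1097) and 2088 CPM in library 2 (2063 to 2112). That was 7.97-fold above all other gated barcodes in library 1 and 7.81-fold in library 2. Mmp3 UMIs were found in 43.1% of fibroblast barcodes of library 1 and 58.3% of those of library 2 after every barcode was thinned to 3000 UMIs (54.0% and 66.9% unthinned). In T cell barcodes, which should lack the gene, the thinned shares were 5.81% and 4.59% (7.74% and 10.1% unthinned), at median depths of 5330 and 4961 UMIs against 8414 and 6130 in fibroblasts. Chondrocyte barcodes held 1328 CPM of Mmp3 in library 1 and 471 CPM in library 2. Smooth muscle barcodes held 76.5 CPM in library 1 and 183 CPM in library 2. Those smooth muscle levels were 1.43 and 1.40 times what the estimated share of free RNA in these barcodes would give, since free RNA itself held 321 CPM of Mmp3 in library 1 and 588 CPM in library 2. The highest value of all, 8297 CPM in pericyte barcodes of library 2, came mostly from 1 barcode. That barcode held 65.1% of the UMIs, the level without it was 3193 CPM, and pericyte barcodes of library 1 held 37.4 CPM. In Schwann barcodes of library 2, 1 barcode held 97.5% of the Mmp3 UMIs, and the level without it was 16.3 CPM.

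Mmp13, collagenase-3, which cleaves fibrillar and cartilage collagen, was sparse and unevenly spread. It stood at 101 CPM in chondrocyte barcodes of library 1 and 72.8 CPM in those of library 2. One barcode held 48.9% of these UMIs in library 1 and 70.1% in library 2, and without it the levels were 53.1 and 22.1 CPM. In fibroblasts Mmp13 stood at 8.73 CPM in library 1 (7.41 to 10.2) and 66.1 CPM in library 2 (61.8 to 70.6). Only 0.712% of fibroblast barcodes in library 1 and 3.48% in library 2 held an Mmp13 UMI after thinning (1.42% and 5.62% unthinned), against 0% and 0.917% of T cell barcodes (0% and 2.75% unthinned). The fibroblast barcodes with Mmp13 were also rich in Mmp3. In counts thinned to 3000 UMIs, the 11 of them in library 1 held 4848 CPM of Mmp3, against 1066 CPM in the other 1535, a ratio of 4.55 (3.86 to 5.33). The 52 in library 2 held 5526 CPM, against 1668 CPM in the other 1443, a ratio of 3.31 (3.08 to 3.56). Timp1 was higher in the same barcodes, by a ratio of 2.06 in library 1 (1.56 to 2.66) and 3.13 in library 2 (2.85 to 3.43). Timp2 stood at 0.981 (0.678 to 1.37) and 0.916 (0.769 to 1.08). Timp3 ran in opposite directions, at 0.3685 (0.2145 to 0.5904) in library 1 and 1.42 (1.24 to 1.63) in library 2. Among chondrocyte barcodes, those with Mmp13 (4 in library 1 and 22 in library 2) had Mmp3 ratios of 17.0 and 4.11. These splits rest on a few barcodes of each library, and the barcodes of a library are not replicates.

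Mmp10, stromelysin-2, gave 0 UMIs in gated barcodes of library 1 and 8 in those of library 2. Mmp20, the enamel protease, gave 1 and 3 UMIs.

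Mmp12, the macrophage metalloelastase, was far higher in macrophages than elsewhere. Macrophage barcodes held 1004 CPM in library 1 (976 to 1032) and 522 CPM in library 2 (497 to 547). That was 147-fold above the other gated barcodes in library 1 and 66.2-fold in library 2. It was the only member of 17 tested (5.88%) to pass 4-fold in macrophages in both libraries, against 7.21% of all genes. Its UMIs were found in 38.7% of macrophage barcodes of library 1 and 31.4% of those of library 2 after thinning (48.3% and 41.1% unthinned). In T cell barcodes these shares were 0.645% and 0% after thinning (1.29% and 0.917% unthinned). Expression was uneven among macrophages, since the top 33 of 323 barcodes held 64.52% of the thinned UMIs in library 1 and the top 30 of 299 held 69.85% in library 2. Monocyte barcodes followed with 46.4 and 123 CPM, of which 1 barcode held 55.6% in library 1 and 65.4% in library 2.

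In thinned counts, 125 macrophage barcodes of library 1 and 94 of library 2 held an Mmp12 UMI, and 198 and 205 did not. The former were higher in Mmp14, by a ratio of 2.01 in library 1 (1.52 to 2.66) and 1.42 in library 2 (1.02 to 1.98). Timp2 stood at 1.05 (0.838 to 1.31) and 1.27 (1.01 to 1.60). Mmp19 stood at 1.58 (0.823 to 3.05) and 2.65 (1.23 to 5.80), and Mmp8 at 1.58 (0.295 to 8.50) and 0 (0 to 85.05). Mmp27 stood at 3.96 (1.14 to 17.3) and 1.09 (0.0185 to 20.95), and Mmp13 at 6.34 (1.71 to 35.0) and 1.45 (0.302 to 6.13). Before thinning, the median depth was 17390 UMIs with Mmp12 and 9676 without in library 1, and 8094 and 7152 in library 2. The part of depth was not tested, and these barcodes are not replicates. Mmp14, the transmembrane enzyme that activates pro-Mmp2, stood at 234 CPM in macrophages of library 1 and 179 CPM in those of library 2. Mmp19, a secreted enzyme with a wide range of substrates, had its highest level in macrophages of library 1 (63.8 CPM) and in monocytes of library 2 (61.4 CPM). The intervals of the first and second types overlapped in both libraries. Mmp27 lies next to Mmp8 in the cluster, and it stood at 17.1 CPM in macrophages of library 1 and 5.52 CPM in those of library 2, with 5.56 and 5.21 CPM in fibroblasts.

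Neutrophil barcodes were few, but Mmp9 and Mmp8 were concentrated in them. Mmp9, gelatinase B, stood at 260 CPM in library 1 (202 to 330) and 323 CPM in library 2 (203 to 489). Neutrophils contributed 67 of 92 and 22 of 40 gated Mmp9 UMIs. Mmp9 was found in 60.7% of 56 and 56.2% of 16 neutrophil barcodes after thinning (66.1% and 62.5% unthinned), against 0.0671% and 0.0866% of smooth muscle barcodes. Mmp8, the neutrophil collagenase, stood at 287 CPM in library 1 (226 to 361) and 147 CPM in library 2 (70.5 to 270). Monocytes held 51.6 and 35.45 CPM of it. Both genes passed 4-fold in neutrophils (2 of 5 members tested, 40.0%, against 28.1% of all genes), and Mmp8 also did in monocytes (1 of 10, against 7.4%). Mmp9 no longer passed with a minimum of 5000 UMIs per barcode, nor Mmp8 with the minimum on gene UMIs doubled. Median neutrophil depth was only 3702 UMIs in library 1 and 3476 in library 2. Mmp8 had 10 UMIs in neutrophils and 15 in monocytes of library 2, too few for the doubled minimum. Macrophage barcodes held only 3 Mmp9 UMIs in library 1 (0.591 CPM) and 6 in library 2 (1.84 CPM), and free RNA held 2.65 and 1.30 CPM.

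Mmp2, gelatinase A, was spread over the stromal types. It stood at 597 CPM in fibroblasts of library 1 and 630 CPM in those of library 2, at 666 and 634 CPM in chondrocytes, and at 270.5 and 309.5 CPM in endothelial barcodes. Its partner in activation, Mmp14, stood at 374 and 288 CPM in pericytes, 314.5 and 292 CPM in fibroblasts and 198 and 252 CPM in endothelial barcodes. The library 1 over library 2 ratio in fibroblasts was 0.948 for Mmp2 (0.921 to 0.975) and 1.08 for Mmp14 (1.03 to 1.12). Mmp2 in macrophages (26.6 and 54.9 CPM) was 0.599 and 0.593 times the free RNA estimate.

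Among the other membrane-bound enzymes, Mmp17, held by a lipid anchor, stood at 44.8 CPM in smooth muscle of library 1 and 42.5 CPM in that of library 2, which was 23.2-fold and 14.98-fold above other barcodes. Mmp15, a transmembrane enzyme, stood at 94.35 CPM in Schwann barcodes of library 1 (61.1 to 139) and 114 CPM in those of library 2 (71.5 to 173), and at 0.964 and 1.42 CPM in fibroblasts. It rested on 25 and 22 UMIs, and it was the 1 of 7 members tested to pass 4-fold in Schwann barcodes (14.3%), against 9.74% of all genes. With a minimum of 5000 UMIs it no longer passed, while median Schwann depth was 3865 UMIs in library 1 and 4983 in library 2. Mmp23, which is anchored at its N-terminus, was a fibroblast and smooth muscle gene, with 304 and 262 CPM in fibroblasts and 158 and 126 CPM in smooth muscle. Mmp16 and Mmp25 stayed at or below 61.4 CPM in every gated type. Mmp16 reached 59.4 CPM in chondrocytes of library 2 and 26.8 CPM in those of library 1, and its 61.4 CPM in monocytes of library 2 came to 92.3% from 1 barcode. Mmp25, also lipid-anchored, stood at 3.41 and 3.22 CPM in smooth muscle and at 6.55 and 17.3 CPM in T cells, the last from 7 and 12 UMIs. Neutrophils held 7.77 and 44.1 CPM of it, from only 2 and 3 UMIs. Mmp24 had 14 UMIs in gated barcodes of library 1 and 7 in those of library 2, and Mmp21 had 4 and 3.

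Mmp28, epilysin, was the only member of 21 tested to pass 4-fold in chondrocyte barcodes (4.76%, against 1.61% of all genes). It stood at 38.4 CPM in library 1 (30.7 to 47.4) and 51.3 CPM in library 2 (44.5 to 58.9). Mmp11, stromelysin-3, was low and even, with 10.4 and 9.91 CPM in fibroblasts and 7.94 and 8.80 CPM in smooth muscle.

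**Figure D2:**
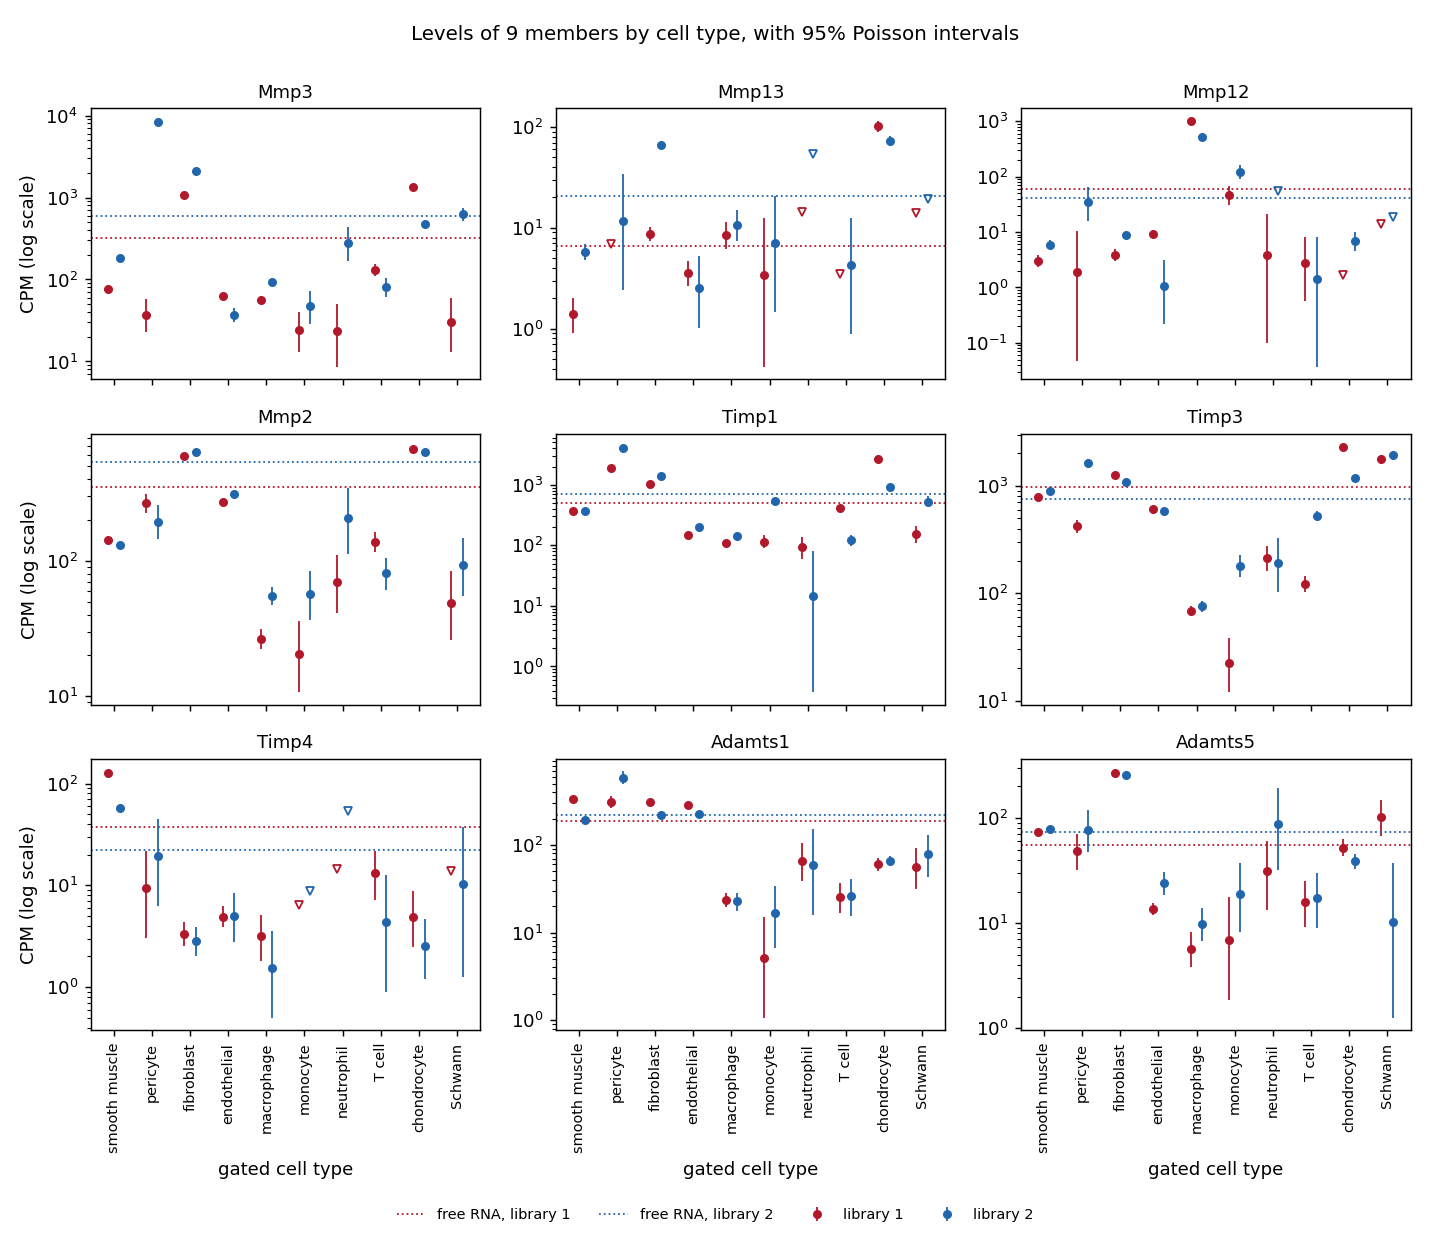
Levels of 9 members in the 10 gated cell types, as CPM on a log scale, with library 1 (red) left of library 2 (blue). Bars are exact 95% Poisson intervals, open triangles mark the upper limit where no UMI was found, and dotted lines mark free RNA of the same library. Mmp12 and Timp4 rise above free RNA in 1 type only among those drawn, apart from Mmp12 in monocytes of library 2, while Mmp3 varies most between libraries in pericyte and Schwann barcodes.

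Among the Adamts proteases that cut aggrecan and versican, Adamts1 was the most abundant. It stood at 337 CPM in smooth muscle of library 1 and 192 CPM in that of library 2, at 306 and 222 CPM in fibroblasts, and at 289 and 225 CPM in endothelial barcodes. Pericytes of library 2 reached 587 CPM, of which 1 barcode held 36.4%, against 306 CPM in those of library 1. Among immune types, macrophages held 23.4 and 22.7 CPM of Adamts1, at 0.9797 and 0.6015 times the free RNA estimate. Neutrophils held 66.0 and 58.8 CPM (1.683 and 1.015 times), from 17 and 4 UMIs. Adamts5, the neighbour of Adamts1 on chromosome 16 and the main aggrecanase of mouse cartilage, followed another pattern. It stood at 270 and 258 CPM in fibroblasts and at 73.8 and 78.2 CPM in smooth muscle, and was 6.50-fold and 4.33-fold above the other gated barcodes in fibroblasts. Chondrocyte barcodes held only 52.2 and 38.7 CPM of it. Adamts9 was highest in smooth muscle of library 1 (119 CPM) and in pericytes of library 2 (175 CPM), with 68.7 and 74.0 CPM in endothelial barcodes. Adamts4 was highest in pericytes, at 54.2 and 97.2 CPM, but 1 barcode held 51.7% of these UMIs in library 1 and 60.0% in library 2. Adamts9 overlaps the gene 9530026P05Rik on the other strand (7616 UMIs in gated barcodes of both libraries), so if counting ignored strand, reads of these genes cannot be told apart.

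Adamts15 and Adamts8 are neighbours on chromosome 9 and differed in their leading type. Adamts15 was highest in fibroblasts, at 55.7 and 32.2 CPM, with 31.6 and 24.8 CPM in smooth muscle. Adamts8 was highest in smooth muscle, at 20.7 and 22.3 CPM, which was 7.22-fold and 5.29-fold above other barcodes. Adamts20, which acts on versican, gave 98.1 CPM in Schwann barcodes of library 1 (64.1 to 144) and 41.5 CPM in those of library 2 (17.9 to 81.8), from 26 and 8 UMIs. It was found in 29.0% and 6.45% of Schwann barcodes after thinning (32.3% and 19.4% unthinned), against 0.323% and 0.334% of fibroblast barcodes.

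The procollagen N-propeptidases were led by Adamts2, with 323 CPM in fibroblasts of library 1 and 340 CPM in those of library 2, 4.13-fold and 4.25-fold above other barcodes. Adamts3 was also highest in fibroblasts, at 23.0 and 18.8 CPM. Adamts14 stayed low, at 4.16 and 2.65 CPM in smooth muscle, with 14.2 CPM in chondrocytes of library 2. With Mmp3, Adamts5, Adamts16 and Adamts19, Adamts2 made up the 5 of 34 members (14.7%) that passed 4-fold in fibroblasts, against 3.2% of all genes. Adamts16 and Adamts19 were rare there, at 1.08 and 2.01 CPM and at 6.75 and 2.38 CPM. In smooth muscle, 3 of 31 members (9.68%) passed, against 3.0% of all genes, and they were Mmp17, Timp4 and Adamts8. Adamts2, Adamts5 and Adamts8 no longer passed after thinning, with a minimum of 1000 UMIs and with the mean of barcodes, and neither did Adamts16 after thinning or Adamts2 under TMM scaling. No member passed in endothelial barcodes (0 of 22, against 5.06%) or in T cells (0 of 12, against 7.9%).

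Adamts12, which cleaves the cartilage protein Comp, was the 1 of 13 members (7.69%, against 0.528% of all genes) to pass 4-fold in pericytes. It stood at 78.5 and 77.7 CPM from 42 and 20 UMIs, and at 33.0 and 49.8 CPM without the highest barcode of each library. It no longer passed 4-fold without that barcode, with a minimum of 1000 UMIs or under TMM scaling. Adamts7, which also cleaves Comp, was low, with 7.60 and 4.69 CPM in endothelial barcodes and 5.28 and 5.14 CPM in fibroblasts. Of the enzymes tied to fibrillin microfibrils, Adamts10 was highest in endothelial barcodes, at 61.3 and 73.2 CPM. Adamts17 reached 3.57 and 4.02 CPM in fibroblasts, and free RNA itself held 15.9 CPM in library 1 and 3.25 CPM in library 2. The fibroblast levels were 0.732 and 4.53 times what the estimated share of free RNA would give. Adamts6 was highest in T cells of library 1 and in chondrocytes of library 2. It stood at 73.9 and 85.1 CPM in T cells, where 12.3% and 16.5% of barcodes held a UMI after thinning (19.4% and 21.1% unthinned). In macrophages these shares were 3.10% and 5.69% (5.88% and 9.03% unthinned), at median depths of 10810 and 7285 UMIs. Adamts18 had 44 UMIs in gated barcodes of library 1 and 3 in those of library 2. Adamts13, the von Willebrand factor protease made mainly in liver, had 6 and 2.

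Timp UMIs outnumbered those of both protease families together, in both libraries, in 5 of the 10 types (smooth muscle, endothelial, T cell, chondrocyte and Schwann). They made up 55.2% of all member UMIs in smooth muscle of library 1 and 58.0% in that of library 2, and 76.1% and 69.3% in Schwann barcodes. Macrophages stood at the low end of the abundant types, with 27.3% and 36.2%, and fibroblasts between them with 48.5% and 43.7%. In free RNA the Timp share was 56.9% in library 1 and 49.3% in library 2. The library 1 shares of smooth muscle, endothelial (55.8%) and T cell barcodes (53.4%) lay below it. In T cells of library 1, Timp2 and Timp3 stood at 0.7255 and 0.4526 times the free RNA estimate. One T cell barcode held 73.7% of the Timp1 UMIs in library 1, and 1 held 52.05% of the Timp3 UMIs in library 2. In total, member genes summed to 6914 and 7979 CPM in fibroblasts, 8307 and 4642 CPM in chondrocytes, 3254 and 3012 CPM in smooth muscle, 2482 and 2568 CPM in endothelial barcodes and 2070 and 1596 CPM in macrophages. The plot of summed levels shows the share of each family.

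**Figure D3:**
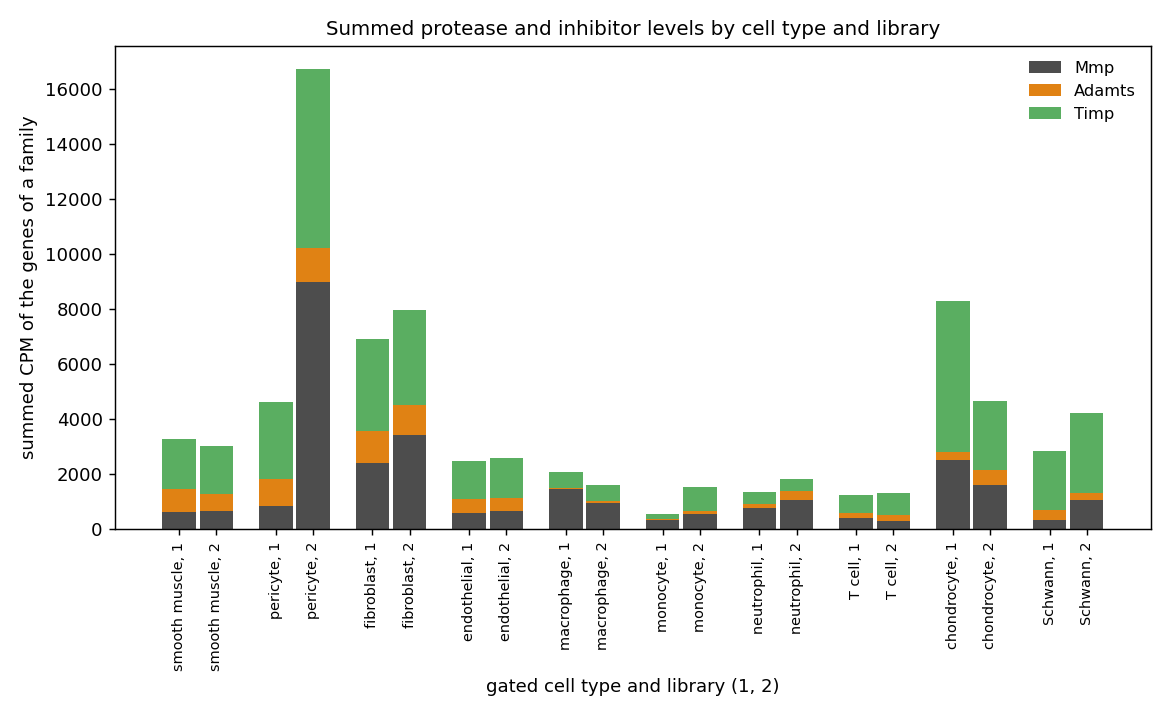
Summed CPM of the Mmp (grey), Adamts (orange) and Timp (green) genes in each gated cell type, with library 1 left of library 2. Timp genes form the largest block in smooth muscle, endothelial, chondrocyte and Schwann barcodes of both libraries, and Mmp genes form it in macrophages. The tall pericyte bar of library 2 rests on 17 barcodes.

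Timp2 inhibits Mmp enzymes and also takes part in the activation of pro-Mmp2. It stood at 1048 CPM in fibroblasts of library 1 and 1032 CPM in those of library 2, at 624 and 636 CPM in endothelial barcodes, and at 386 and 361 CPM in macrophages. After thinning, 91.1% and 90.7% of fibroblast barcodes held a UMI of it (98.0% and 96.9% unthinned), against 10.3% and 11.01% of T cell barcodes (16.1% and 19.3% unthinned). Timp3 was highest in chondrocytes of library 1 (2281 CPM) and Schwann barcodes of library 2 (1919 CPM). It was high in smooth muscle (789 and 892 CPM) and fibroblasts (1261 and 1078 CPM). Macrophages held 68.95 and 75.5 CPM of Timp3, below the free RNA estimates of 125.5 and 129.1 CPM. Those estimates are thus too high for Timp3 there. Timp1, an inducible inhibitor, was highest in chondrocytes of library 1 (2633 CPM) and stood at 1041 and 1374 CPM in fibroblasts and 376 and 367 CPM in smooth muscle. It reached 1920 and 4096 CPM in pericytes, where 1 barcode held 42.9% of the UMIs in library 1 and 42.7% in library 2. In T cells of library 1, at 416 CPM, 1 barcode held 73.7% of the UMIs. Timp4 was a smooth muscle gene, at 126 CPM in library 1 (121 to 132) and 57.7 CPM in library 2 (54.5 to 60.99), which was 30.2-fold and 18.3-fold above other barcodes. Timp4 UMIs were found in 20.7% of smooth muscle barcodes of library 1 and 11.9% of those of library 2 after thinning (35.4% and 24.2% unthinned), against 1.68% and 1.27% of fibroblasts (2.91% and 2.34% unthinned).

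Between the libraries, 141 pairs of a member and a cell type had at least 50 UMIs in the 8 types with 30 or more barcodes in each. Of these, 24 (17.0%) were at least 1.5-fold higher in library 1, against 5.05% of all gene and type pairs, and 29 (20.6%) were at least 1.5-fold lower, against 9.76%. The exact 95% counting interval left out 1 in 51 of these 53 pairs, which involved 27 members. In 16 of them, both levels were under 2 times the free RNA estimate. The 53 pairs stayed past 1.5-fold in 36 cases when every barcode was thinned to the same depth, and 27 counted as past it under all 11 alternatives applied to them. Among the 27, Mmp12 in endothelial barcodes gave no usable ratio with free RNA subtracted but was counted as past. Timp3 in monocytes and T cells had a ratio of 0 there, because its library 1 level was wholly subtracted. Each library is 1 sample, so the spread between animals is unknown, and sample, library and treatment cannot be told apart.

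**Figure D4:**
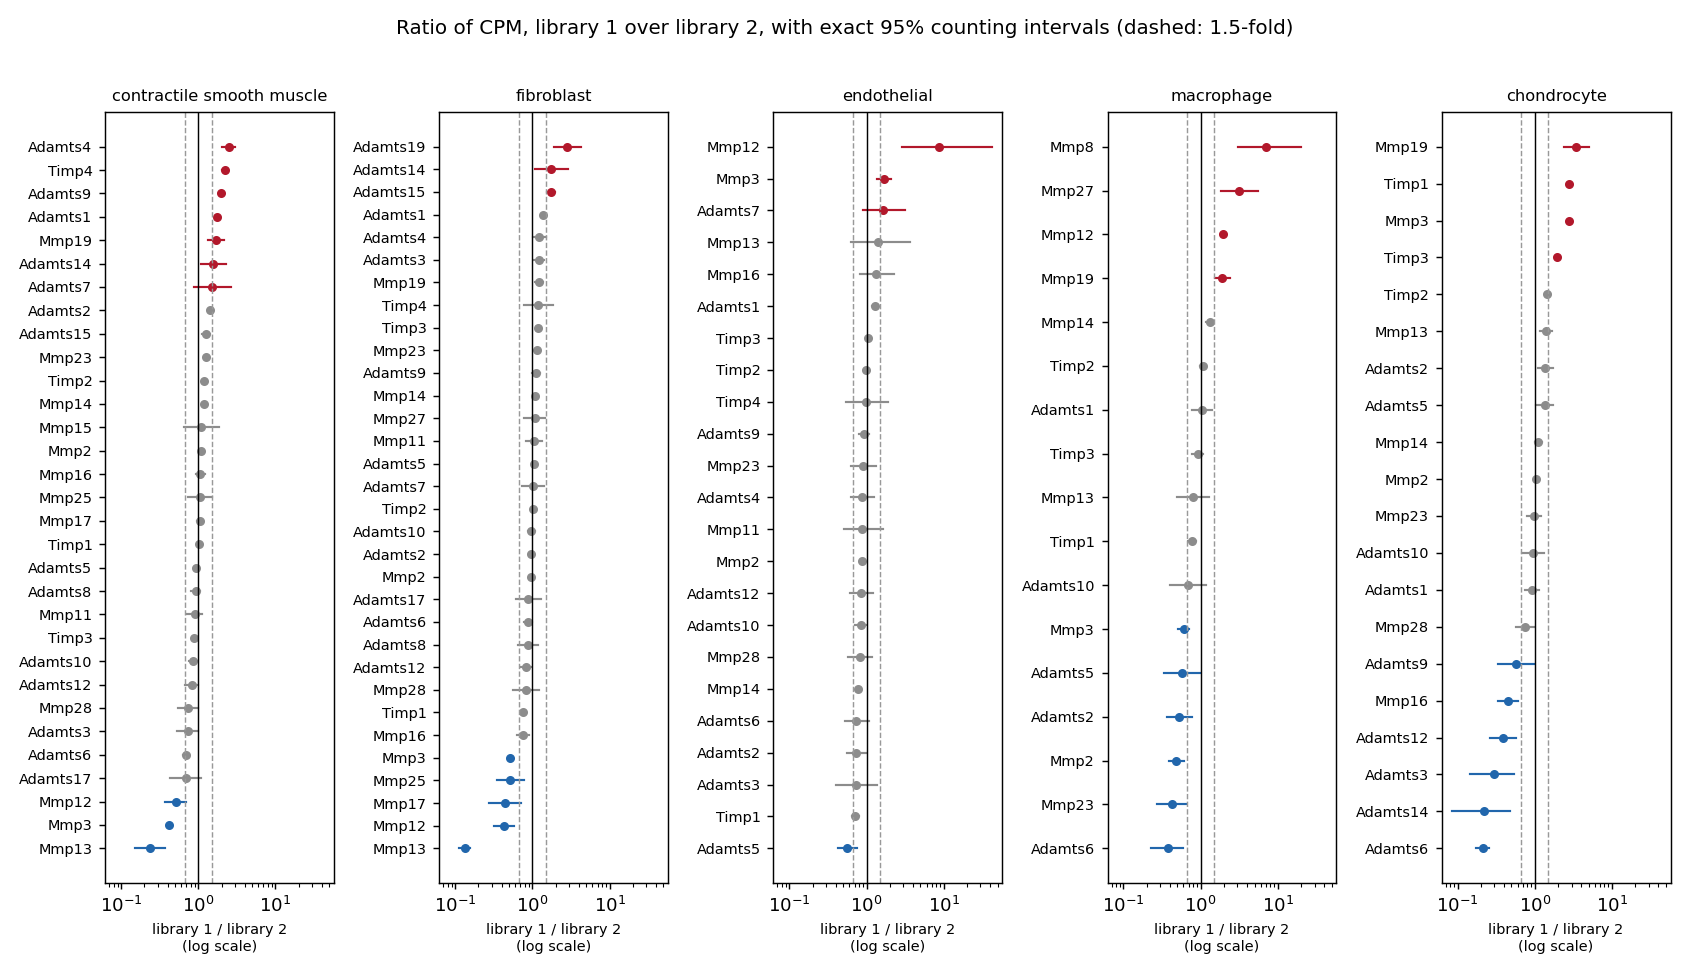
Ratio of CPM, library 1 over library 2, on a log scale for members with at least 50 UMIs in 5 gated cell types, with exact 95% counting intervals. Red marks pairs at least 1.5-fold higher in library 1, blue marks pairs at least 1.5-fold lower and dashed lines mark 1.5-fold. Mmp13 and Mmp3 are lower in library 1 in smooth muscle and fibroblasts, and Mmp3 is higher in library 1 in chondrocytes.

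In smooth muscle, 7 of 31 members (22.6%) were higher in library 1, against 4.15% of all genes, and 3 (9.68%) were lower, against 7.15%. The largest was Adamts4, with 19.6 CPM in library 1 and 7.95 CPM in library 2, a ratio of 2.47 (2.05 to 2.98). Timp4 followed with a ratio of 2.19 (2.05 to 2.35), then Adamts9 with 119 and 60.2 CPM (1.97, 1.84 to 2.12) and Adamts1 (1.75, 1.68 to 1.82). These 4 stayed past 1.5-fold under every alternative. Adamts7, Adamts14 and Mmp19 also passed, but fell inside 1.5-fold after thinning. Mmp3 and Mmp13 were lower in library 1, with ratios of 0.417 (0.3925 to 0.4434) and 0.238 (0.1496 to 0.3657). Their levels in smooth muscle were 1.26 to 1.43 times the free RNA estimate. Mmp12 in smooth muscle (3.04 and 5.96 CPM) lay below that estimate in both.

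In fibroblasts, 3 of 32 members (9.38%, against 3.25%) were higher in library 1 and 5 (15.6%, against 6.69%) were lower. Mmp13 had a ratio of 0.132 (0.111 to 0.157) and Mmp3 a ratio of 0.518 (0.509 to 0.528), and both stayed past 1.5-fold under every alternative. Mmp25 (2.50 and 4.84 CPM, ratio 0.5155) did too, while Mmp17 was lower at 1.70 and 3.87 CPM, both below the free RNA estimate. Adamts15, with a ratio of 1.73 (1.54 to 1.94), and Adamts19, with 2.83 (1.90 to 4.33), were higher, but stood at 1.45 and 1.18 after thinning, and Adamts14 stood at 1.07. Mmp12 in fibroblasts, lower in library 1 at 0.4315, had 53.3% of its library 2 UMIs in 1 barcode and stood at 0.856 without the highest barcodes. Mmp2, Mmp14, Timp2, Timp3, Adamts2 and Adamts5 had ratios between 0.948 and 1.17 in fibroblasts.

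In macrophages, 4 of 17 members (23.5%, against 4.35%) were higher in library 1 and 6 (35.3%, against 10.7%) were lower. Mmp12 was higher by a ratio of 1.92 (1.82 to 2.03), Mmp8 by 7.06 (3.08 to 19.9, with 42.4% of its library 1 UMIs in 1 barcode), Mmp27 by 3.10 (1.85 to 5.48) and Mmp19 by 1.91 (1.53 to 2.39). The first 3 stayed past 1.5-fold under every alternative, and Mmp19 stood at 1.25 after thinning. The 6 that were lower were Mmp2, Mmp3, Mmp23, Adamts2, Adamts5 and Adamts6. Fibroblast markers summed to 815 CPM in macrophages of library 1 and 1213 CPM in those of library 2, and of the 6 only Adamts6 exceeded 1.5 times the free RNA estimate. With free RNA subtracted the other 5 gave no ratio, and thinning ended the call of Mmp3 (0.815). Osteoclast markers summed to 919.5 CPM in macrophages of library 1 and 397 CPM in those of library 2, and monocyte markers to 292 and 208 CPM. The part of these markers in the differences was not tested.

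In chondrocytes, 4 of 20 members (20.0%, against 6.61%) were higher in library 1 and 6 of 20 were lower, against 15.1%. Timp1 stood at 2633 CPM in library 1 and 933 CPM in library 2 (ratio 2.82, 2.71 to 2.94). Mmp3 had the same ratio of 2.82 (2.66 to 2.99), and Timp3 had 1.92 (1.849 to 2.002). Adamts6 ran the other way, with 53.1 CPM in library 1 and 249 CPM in library 2 (ratio 0.214, 0.175 to 0.259), as did Adamts12 with 14.7 and 37.4 CPM and Adamts3 with 5.36 and 18.2 CPM. Mmp19 was also higher (39.7 and 11.6 CPM), and Mmp16, Adamts9 and Adamts14 were lower. These gates held unlike barcodes in the libraries. Median depth was 22300 UMIs in library 1 and 5015 in library 2, chondrocyte markers summed to 10360 and 27600 CPM, fibroblast markers to 20650 and 10600 CPM, and osteoblast markers to 142 and 1366 CPM. Their part in the differences was not tested. After thinning, the ratio of Adamts6 was 0.558 and that of Mmp3 was 1.87. Thinning ended the calls of Mmp19 (1.35), Mmp16 (0.876) and Adamts14 (1.03), and 1 barcode held 40.45% of the Mmp19 UMIs in library 1. Adamts9 lost its call with a minimum of 5000 UMIs and with a stricter gate.

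In endothelial barcodes, 3 of 23 members were higher in library 1, against 3.8%, and 1 (4.35%, against 7.69%) was lower. Mmp12 had a ratio of 8.60 (2.88 to 42.2) from 136 and 3 UMIs, but 1 barcode held 68 of the 136, and the levels were 1.03 and 0.1754 times the free RNA estimate. Mmp3 had a ratio of 1.69, which turned to 0.761 after thinning. Adamts7, at 1.62, had an interval that includes 1. Adamts5 was lower, at 13.7 and 24.2 CPM (ratio 0.566, 0.4274 to 0.7585).

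The remaining types rest on few barcodes. In T cells, Mmp2, Mmp3 and Timp1 were higher in library 1 (3 of 8, 37.5%, against 6.77%) and Timp3 was lower (1 of 8, 12.5%, against 13.1%). One barcode held between 41.1% and 76.8% of the UMIs of Mmp2, Mmp3 and Timp1 in each library. Mmp2 stood at 1.08 after thinning, and Mmp3 lost its call with a minimum of 5000 UMIs and with a mitochondrial limit of 10%. In monocytes 0 of 6 members were higher (against 10.4%) and 4 (66.7%, against 14.7%) were lower, namely Mmp12, Timp1, Timp2 and Timp3. One barcode of library 2 held 65.4% of the Mmp12 UMIs, 67.4% of those of Timp1 and 67.1% of those of Timp3, and the level of Timp3 without it was 62.8 CPM. Timp2 stood at a ratio of 0.708 after thinning, inside 1.5-fold. Fibroblast markers summed to 497 CPM in monocytes of library 1 and 2146 CPM in those of library 2. In Schwann barcodes 0 of 4 members were higher (against 14.1%) and 3 (75.0%, against 14.0%) were lower, namely Mmp3, Timp1 and Timp2, and fibroblast markers summed to 404 CPM in library 1 and 4372 CPM in library 2. Timp1 and Timp2 both fell inside 1.5-fold after thinning (ratios of 0.882 and 0.672), with a stricter gate and with the mean of barcodes. One barcode held 79.4% of the Timp1 UMIs in library 2. For Mmp3, 1 barcode of library 2 held 97.5% of the UMIs, and the level without it was 16.3 CPM. Library 1 held 30.2 CPM of Mmp3, from 8 UMIs.

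Among kept barcodes without a cell type, a large set was rich in members. Those with at least 4 of 6 genes linked to modulated smooth muscle numbered 653 in library 1 (10.31% of kept barcodes) and 734 in library 2 (11.22%). Member genes summed to 6833 and 7369 CPM there. Fibroblast markers summed to 14220 and 13450 CPM there, against 18640 and 19220 CPM in fibroblast barcodes. Contractile smooth muscle markers summed to 4331 and 5527 CPM, against 890 and 1486 CPM in fibroblasts and 38770 and 41690 CPM in smooth muscle. The modulated markers, by which the set was chosen, summed to 14220 and 16040 CPM. In the barcodes of this set, Timp1 stood at 2185 CPM in library 1 (2156 to 2214) and 2350 CPM in library 2 (2317 to 2383). That was above fibroblasts and smooth muscle of both libraries, but below chondrocytes of library 1 (2633 CPM) and pericytes of library 2 (4096 CPM). Timp1 was among the 10 genes with the largest fold in these barcodes. Mmp3 stood at 973 and 913 CPM, Mmp2 at 528 and 656 CPM, and Mmp14 at 378 and 499 CPM. Mmp13, at 27.6 and 82.4 CPM, came to 54.5% from 1 barcode in library 2. Their leading genes (Grin2a, Crabp2, Tnfrsf11b, Nos2 and others) held 1 marker of the modulated set. That set was not among the 20 marker sets of the gate, so it could give no barcode a name.

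Genes that act with these proteases were taken from 5 lists, and up to 3 with the largest ratios are named from each. Of the activators of protease zymogens, 4 of 9 tested passed 4-fold in a type, against the 21.2% of all genes given above. Plaur, the urokinase receptor, did so in neutrophils (1685 CPM in library 1 and 2028 CPM in library 2), Pcsk6, a proprotein convertase, in fibroblasts (116 and 65.76 CPM), and Klk8, a serine protease, in endothelial barcodes (40.6 and 41.85 CPM). Of other inhibitors and clearance receptors 3 of 9 passed, and Cd44, a receptor that can hold Mmp9 at the cell surface, did so in neutrophils with 1770 and 2101 CPM. Of the Adamts-like proteins, which lack the protease domain, 3 of 6 passed. Thsd4 passed in smooth muscle (306 and 337 CPM), and Adamtsl2 (27.85 and 14.2 CPM) and Adamtsl1 (81.2 and 61.3 CPM) in fibroblasts. Of 14 matrix substrates 7 passed, but Acan, Comp and Dcn among them are gate markers. Of 14 AP-1, NF-kB and cytokine genes 5 passed. Il1b, which induces several Mmp genes, stood at 4923 and 6980 CPM in neutrophils, Tnf at 423 and 284 CPM in macrophages, and Il6 at 266 and 182 CPM in fibroblasts.

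Between libraries, the 98 pairs of AP-1, NF-kB and cytokine genes with a type held 17 that were at least 1.5-fold higher in library 1 and 6 that were lower. Over all gene and type pairs these shares were 5.05% and 9.76%, so the list lay above the first and below the second. In smooth muscle, Junb stood at 1189 CPM in library 1 and 598 CPM in library 2 (ratio 1.99) and Jun at 997 and 570 CPM (1.75). In fibroblasts Fosl1 stood at 37.8 and 20.7 CPM (1.82). Matrix substrates held 8 pairs higher (against 5.05%) and 33 lower (against 9.76%) of 97, led by Dcn in monocytes, Fn1 in Schwann barcodes and Col1a1 in macrophages (188 and 752 CPM). Fibroblast markers, which include Dcn and Lum of this list, were also lower in library 1 in those types. Other inhibitors held 7 pairs higher and 14 lower of 51, both above those shares, among them Serpine2, which inhibits plasminogen activators, in macrophages (30.5 and 78.85 CPM). Protease activators held 5 higher and 5 lower of 45, of which the share that was lower was near the 9.76% of all pairs. Adamts-like genes held 5 higher (against 5.05%) and 4 lower (against 9.76%) of 25, with Adamtsl2 at a ratio of 1.96 in fibroblasts.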

How the data were processed

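The libraries used 3' v3 chemistry from 10x Genomics, per the labels' protocols. The authors deposited 1 unfiltered matrix holding raw UMI counts of both, and its header names Cell Ranger 6.0.1. Further tools in the submitters' processing notes are bcl2fastq and Seurat, with the build mm10. No source used here gives the annotation or the strand setting of the counting. Library 1 held 110257209 UMIs and library 2 held 124266676.

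Barcodes with 3000 or more UMIs and at most 20% mitochondrial UMIs were kept, and the mitochondrial limit removed 23 in library 1 and 32 in library 2. A barcode was given the type, of 20 marker sets, whose markers lay above free RNA for the largest share (0.4 or more, 3 or more markers, a lead of 0.15). A marker counted with at least 1 UMI and more than 0.5 times the UMIs expected of free RNA. No doublet caller was run, so doublets remain, and 17 barcode sequences occurred in both libraries. UMIs were summed per type and library and expressed as CPM. There is 1 library per suffix, so no test was made and no p-value was computed. Intervals are exact Poisson (levels) or exact binomial of the split of UMIs (ratios), and a level of 0 was limited at 3 counts. Free RNA in a type was estimated from the UMIs of other types' markers. The estimated share ran from 8.75% (Schwann barcodes, library 1) to 30.7% (fibroblasts, library 1). Some levels lay well below this estimate, such as Mmp12 in fibroblasts of library 1 (3.86 against 18.7 CPM). The estimate is too high in such cases and sets no firm floor. Members with 100 or more UMIs in gated barcodes of each library were described individually, and others where their highest type held 20 or more. Thinning left out no kept barcode. Counts of 4-fold and 1.5-fold are rules of size. Members and gene lists were chosen with earlier results of these data known. The ratio calculation was tested on simulated data with Python 3.11.15, numpy 2.4.6 and scipy 1.17.1. Alternative scalings used edgeR 4.0.16 (TMM and median-of-ratios factors only). Members overlapping a gene on the other strand include Timp1, Timp3 and Timp4 (Syn1, Syn3 and Syn2) and Adamts9. Timp2 overlaps Cep295nl on the same strand (138 UMIs in gated barcodes of both libraries).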

Additional observations from a re-analysis of the deposited data

How the results depend on the processing

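No paired analysis was possible because each group has 1 sample and no test was made. Detection of members ranged from 36 to 42 in library 1 and from 36 to 44 in library 2 over the alternatives, and the number at least 4-fold higher in a type in both libraries ranged from 11 to 17 around 14. Of the 14, thinning to 3000 UMIs lost Adamts2, Adamts5, Adamts8 and Adamts16 (10 of its 11 were shared), a minimum of 1000 UMIs lost Adamts2, Adamts5, Adamts8 and Adamts12, the mean of barcodes lost Adamts2, Adamts5 and Adamts8, and TMM scaling lost Adamts2 and Adamts12. A minimum of 5000 UMIs lost Mmp9 and Mmp15. The minimum on gene UMIs doubled lost Mmp8 and Adamts16, which had too few UMIs for it. Pairs at least 1.5-fold higher in library 1 numbered 24. They numbered 37 with free RNA subtracted and 74 with no minimum on UMIs. Pairs at least 1.5-fold lower numbered 29. They numbered 109 with no minimum and 19 with the minimum doubled. Fewer or more pairs are tested under another minimum. Under free RNA subtraction, a pair whose library 2 level alone was wholly subtracted counted as higher in library 1. The part of such pairs in the change was not tested.

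Reversed log2 ratios of library 1 over library 2 were -0.18 for Adamts7 in smooth muscle after thinning, and 0.042 for Adamts14 in chondrocytes after thinning. For Mmp3 in endothelial barcodes they were -0.25 with the lower UMI minimum, -0.39 after thinning and -0.33 with the mean of barcodes. For Mmp2 in T cells the value was -0.011 with the mean of barcodes. The cause was not tested. TMM factors shifted all log2 ratios by 0.22 in endothelial, 0.18 in macrophage, 0.24 in monocyte, 0.43 in neutrophil, 0.10 in T cell and 0.11 in chondrocyte barcodes, and reversed no called pair of the members with 100 or more UMIs in each library. Leaving out the highest barcode of each member, an alternative chosen after seeing the data, kept 49 of 53 pairs and lost Adamts7 in smooth muscle, Mmp12 in fibroblasts, Mmp3 in endothelial barcodes and Timp1 in Schwann barcodes. It also lost Adamts12 from the 14. Types with under 60 barcodes in a library limit what depth can show there.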
